A study of Mus musculus with 6 samples.

Results

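Collagen genes encode the chains of the triple-helical proteins of the extracellular matrix. Their messenger RNA was measured here in mouse embryonic stem (ES) cells, pluripotent cells grown from early embryos. The chains were taken by symbol, as every protein-coding gene of the GENCODE M21 annotation named Col, a number, the letter a and a number. Col4a1 and Col4a2, the paired chains found in nearly all basement membranes, were set apart from them. That left 42 chains among the 55401 genes of the count table, of which 39 had enough reads to be tested. They were compared between 3 libraries labelled KO, whose cells were given doxycycline, and 3 libraries labelled 3XHA-Taf13 expressing cells, which had no treatment. Cells of both groups were cultured for 7 days before RNA was taken, and each library came from a Petri dish of its own. TAF13 belongs to TFIID, which binds promoters and helps RNA polymerase II to start. The drug and the KO label always occur together, so their effects cannot be told apart. The strain, the clone, the way in which Taf13 was removed or tagged, and any use of a feeder layer are not given in the labels used here.

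A collagen molecule is a triple helix of chains, and the kind of chain sets what it assembles into. Fibrillar chains form the banded fibres that carry tension in skin, bone, tendon and cartilage. Network-forming chains build the sheets of basement membranes, and fibril-associated chains decorate the surface of the fibres. Further chains form beaded filaments or anchoring fibrils, or span the cell membrane. Pluripotent cells are not a main source of fibres, whereas fibroblasts, which are often used as feeder cells for ES cells, make large amounts of the chains of types I, III, V and VI.

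Total counts ran from 33953189 to 50328010 in the libraries labelled KO and from 31219328 to 45957003 in the expressing libraries. Levels are given in CPM (counts of a gene relative to the size of its library, scaled by TMM) in the order of replicates 1, 2 and 3, and a count of 3 equals 0.0581 to 0.0961 CPM. Each fold change is a log2 ratio of the libraries labelled KO over the expressing libraries, given with its standard error (SE), and a value before an SE in brackets is a log2 fold change. A gene was called when its p-value, adjusted over all 17778 genes tested, was below 0.05 in the quasi-likelihood test of edgeR. Taf13 had 422, 634 and 699 reads in the libraries labelled KO, against 244, 445 and 447 reads in the expressing libraries (log2 fold change 0.40, SE 0.147, adjusted p = 0.0578, edgeR). It was thus not lower in the libraries labelled KO. It was called higher there under 8 of the 14 alternatives, among them DESeq2 (adjusted p = 0.0279) and the fit without expressing replicate 1 (adjusted p = 0.0126, edgeR) or without expressing replicate 3 (adjusted p = 0.0151). The counts do not separate reads of the tagged copy, so the directions below rest on the labels. Summed markers of pluripotent cells were present in every library, at 3569 to 3640 CPM in the libraries labelled KO and 5036 to 5235 CPM in the expressing libraries. Of these 15 markers, all tested, 13 were called lower in the libraries labelled KO (86.7%, against 20.8% of all tested genes). None was called higher (against 19.2%), and their median log2 fold change was -0.73. A pair of libraries stood apart. Expressing replicate 1 differed from both other expressing libraries by a chi-square of 33.9 and 27.5 per degree of freedom, against at most 5.67 in the remaining pairs within a group. KO replicate 2 had higher levels of many of the chains that fibroblasts make than the other libraries labelled KO, as described further on. The p-values measure the spread between dishes, which may share a starting culture.

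Among the 39 chains tested, 12 were higher and 3 were lower in the libraries labelled KO, while 24 were not called (edgeR). That is 30.8% higher and 7.69% lower, where 19.2% of all tested genes were called higher and 20.8% lower. The median log2 fold change was 0.18 over the chains and -0.01 over all tested genes. In 14 chains every library labelled KO lay above every expressing library, and in 4 chains every library labelled KO lay below. Over all tested genes those patterns were found in 26.4% and 27.1%. A called change of at least 2-fold was seen in 5 of the 39 chains, and in 1575 of all 17778 genes tested. The 5 chains were Col12a1, Col6a5 and Col11a1, which were higher, and Col17a1 and Col9a2, which were lower. Of the 24 chains that were not called, 14 had a 95% interval within 2-fold in either direction. Without KO replicate 2 there were 10 chains higher and 5 lower (background 14.1% and 14.7%), and without expressing replicate 1 there were 11 higher and 5 lower (background 26.2% and 24.7%). With both of those libraries left out, 12 were higher and 7 lower (background 25% and 23.8%). In a bulk culture, fewer cells of a type and less RNA per cell cannot be told apart.

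**Figure D1:**
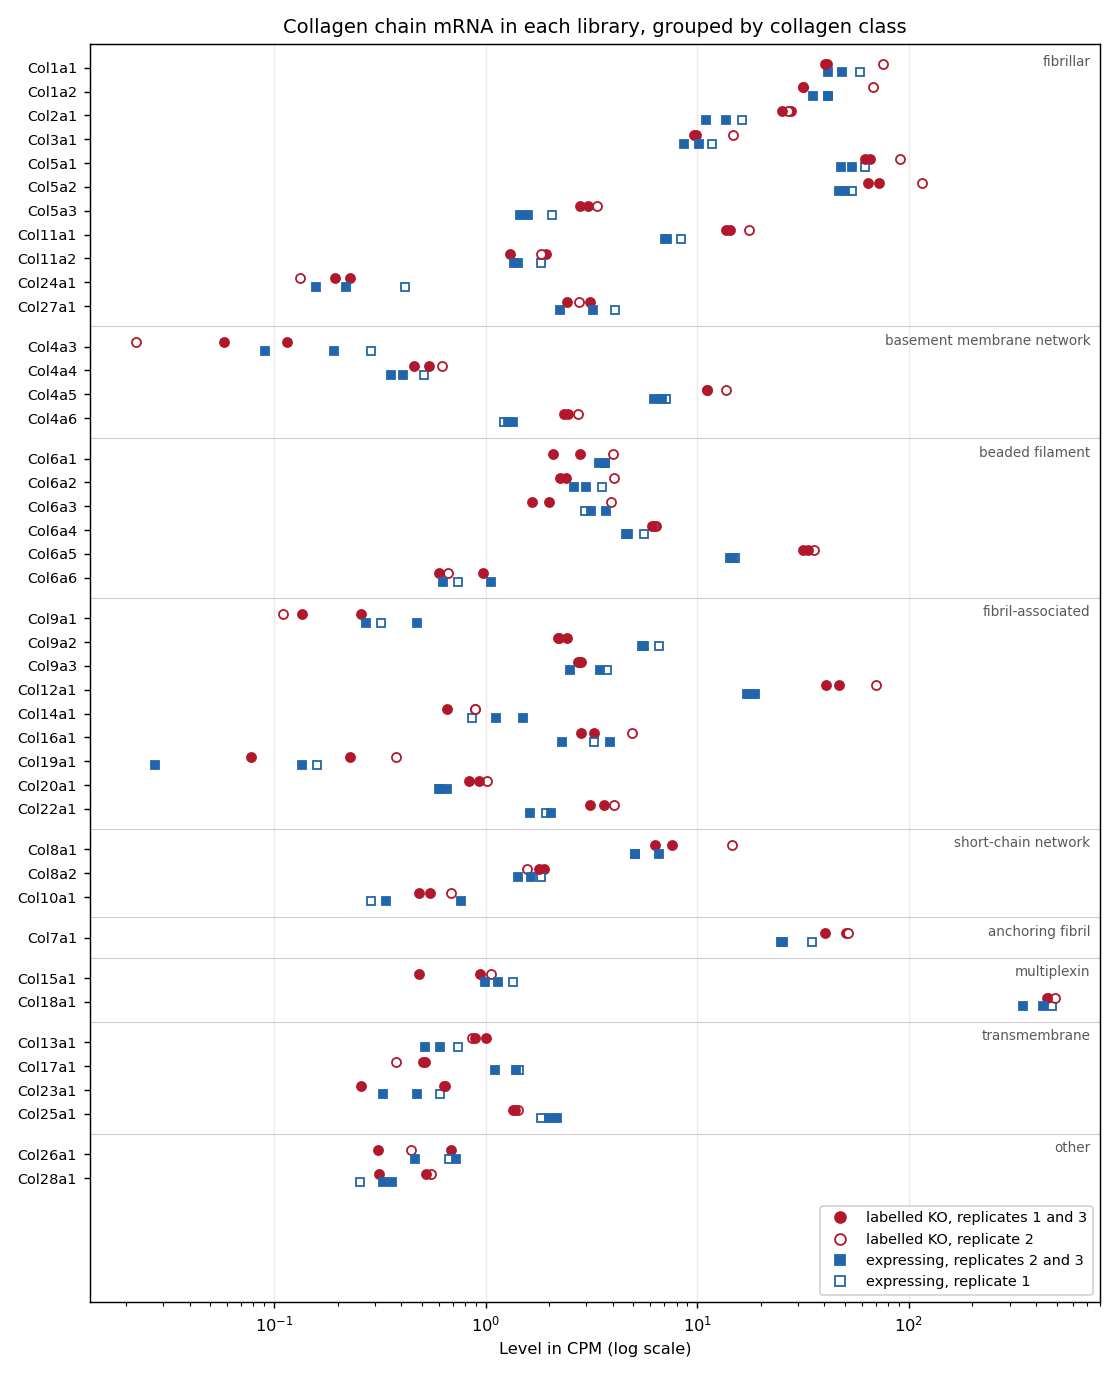
Level of each collagen chain in CPM (log scale) in every library, with the chains grouped by class and 1 point per library; circles are libraries labelled KO and squares are expressing libraries, with open symbols for KO replicate 2 and expressing replicate 1. Col12a1, Col6a5 and Col2a1 show the circles clear of the squares, whereas for Col1a1, Col1a2 and Col6a3 KO replicate 2 stands alone at the right of its group.

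**Figure D2:**
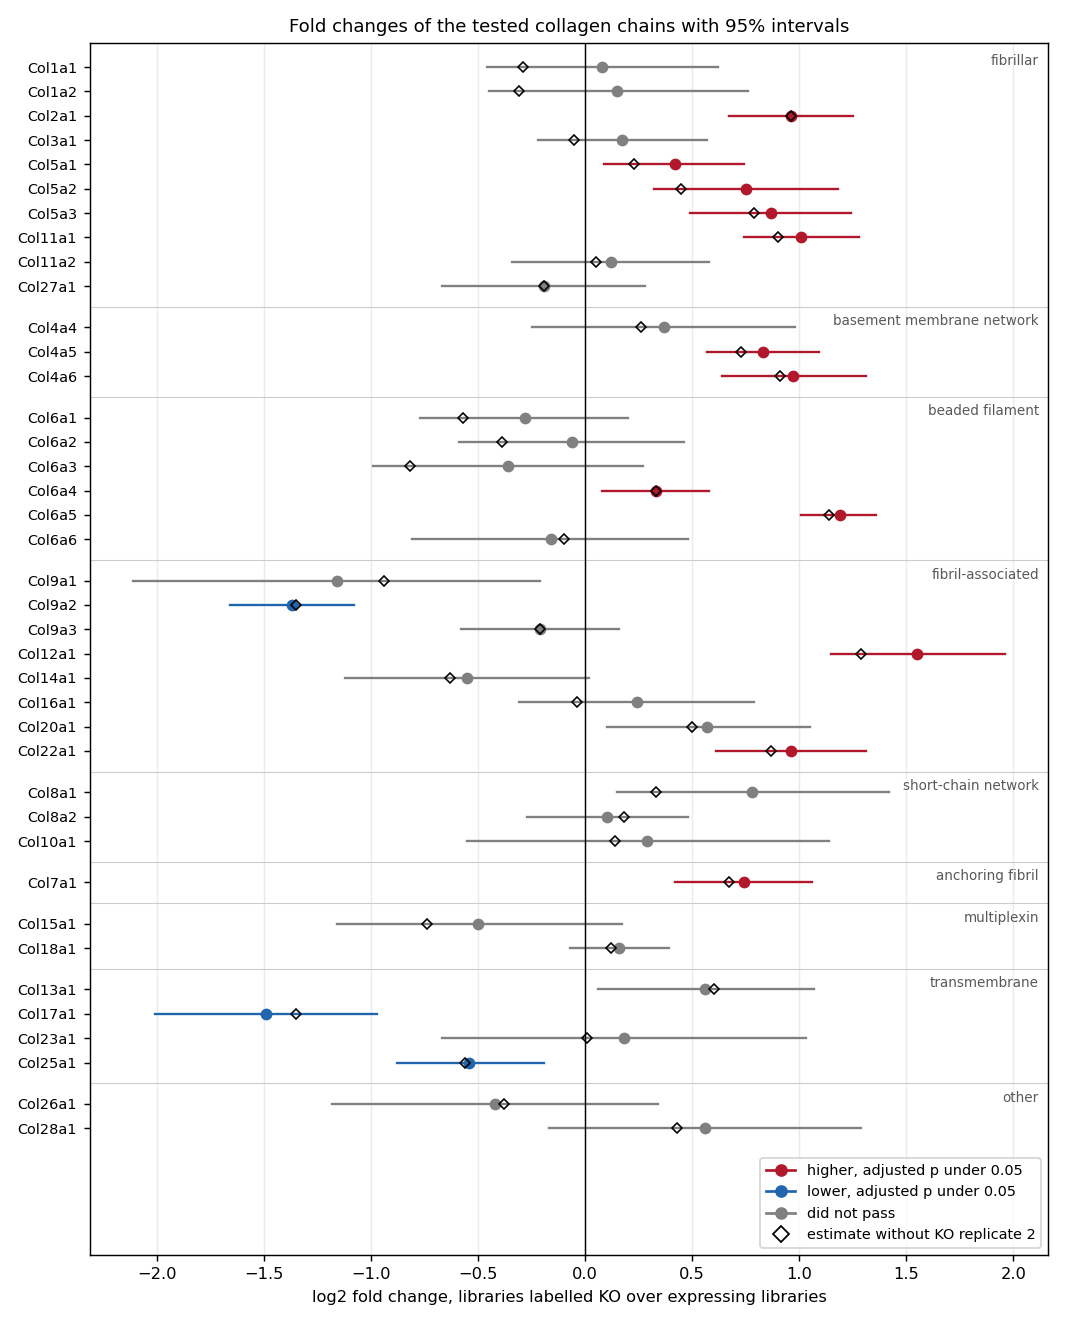
Log2 fold change of each tested chain, the libraries labelled KO over the expressing libraries, with the 95% interval of the edgeR fit as a bar and the estimate without KO replicate 2 as a diamond. Col12a1 (1.55) lies farthest to the right and Col17a1 (-1.49) farthest to the left.

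Collagen messages were a small part of the RNA. The 42 chains held 0.093%, 0.119% and 0.0904% of the counts in the libraries labelled KO, against 0.0861%, 0.0633% and 0.0733% in the expressing libraries. Col18a1, whose product lies in basement membranes and releases the fragment endostatin, took the largest share of these reads, 42.9% to 51.3% in the libraries labelled KO and 52.3% to 55.6% in the expressing libraries. Per kilobase of exon, Col18a1 stood at 64.8, 69.6 and 64.4 CPM per kilobase in the libraries labelled KO, against 67.8, 49.2 and 61.2 CPM per kilobase in the expressing libraries. The order of the next chains by mean level per kilobase over the 6 libraries was Col1a1 (7.77), Col5a1 (7.52), Col5a2 (7.03), Col7a1 (3.69) and Col1a2 (3.35). The values per kilobase of Col1a1, Col5a1 and Col5a2 overlapped between libraries, so their order is not separated by the spread. Col1a1 had 6.24, 11.6 and 6.11 CPM per kilobase in the libraries labelled KO, against 8.95, 6.34 and 7.39 CPM per kilobase in the expressing libraries. For Col5a1 they were 7.74, 10.7 and 7.33 CPM per kilobase in the libraries labelled KO, against 7.31, 5.65 and 6.38 CPM per kilobase in the expressing libraries, and for Col5a2 7.59, 12.1 and 6.72 CPM per kilobase in the libraries labelled KO, against 5.61, 4.9 and 5.22 CPM per kilobase in the expressing libraries. The same scale gave 4.89, 5.03 and 3.9 CPM per kilobase in the libraries labelled KO, against 3.39, 2.47 and 2.43 CPM per kilobase in the expressing libraries for Col7a1, and 2.54, 5.47 and 2.56 CPM per kilobase in the libraries labelled KO, against 3.35, 2.85 and 3.33 CPM per kilobase in the expressing libraries for Col1a2. At the other end, 12 of the 42 chains had a mean below 1 CPM in both groups.

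**Figure D3:**
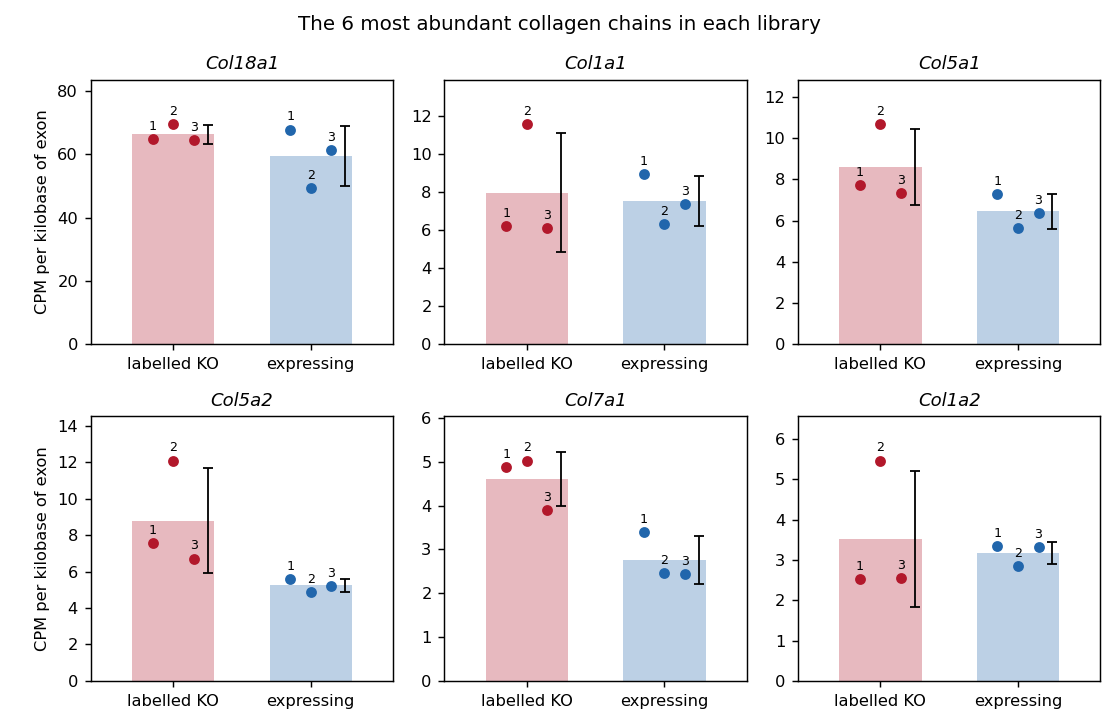
Level per kilobase of exon of the 6 chains with the highest mean, in each library, with the libraries labelled KO on the left and the expressing libraries on the right of each panel; points are libraries numbered by replicate, bars give the mean, and error bars the SD (n = 3). KO replicate 2 is the highest library of its group in all 6 panels, and the groups do not overlap for Col5a1, Col5a2 and Col7a1.

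Among the fibrillar chains, 5 of 10 tested were called (50%), where 40% of all tested genes were called in either direction. All 5 were higher in the libraries labelled KO, a direction called in 19.2% of all tested genes: Col2a1, Col5a1, Col5a2, Col5a3 and Col11a1. The chains of types I and III, the bulk fibres of skin, bone and vessels, were not among them. Col1a1 (ENSMUSG00000001506; mm10, chromosome 11, 94936224 to 94953042) had 40.9, 76 and 40.1 CPM in the libraries labelled KO, against 58.7, 41.6 and 48.5 CPM in the expressing libraries. Its partner Col1a2 (ENSMUSG00000029661; mm10, chromosome 6, 4504814 to 4541544) had 31.6, 68 and 31.8 CPM in the libraries labelled KO, against 41.7, 35.4 and 41.4 CPM in the expressing libraries. Col3a1 (ENSMUSG00000026043; mm10, chromosome 1, 45311538 to 45349706) had 9.72, 14.8 and 9.9 CPM in the libraries labelled KO, against 11.8, 8.64 and 10.3 CPM in the expressing libraries. For all 3 genes KO replicate 2 was the highest of the 6 libraries, the groups overlapped, and no call was made (0.08, SE 0.237; 0.15, SE 0.267; and 0.17, SE 0.177 in the order given). Without KO replicate 2 the log2 fold changes were -0.29 for Col1a1 (adjusted p = 0.148, edgeR), -0.31 for Col1a2 (adjusted p = 0.0464) and -0.05 for Col3a1 (adjusted p = 0.816). Col1a2 thus passed the threshold as lower once that library was left out, and the sign of all 3 turned. Without expressing replicate 2 Col1a1 also turned to -0.04 and was not called.

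Type V chains co-assemble with type I and set the start and the width of its fibrils. Col5a2 (ENSMUSG00000026042; mm10, chromosome 1, 45374321 to 45503282) had 72.8, 116 and 64.5 CPM in the libraries labelled KO, against 53.8, 47 and 50.1 CPM in the expressing libraries. KO replicate 2 was again the highest library, but the groups did not overlap (log2 fold change 0.75, SE 0.189, adjusted p = 0.0121, edgeR). Without KO replicate 2 Col5a2 was still called (0.45, adjusted p = 0.00883, edgeR), whereas it missed the threshold with expressing replicate 1 left out (adjusted p = 0.153) or expressing replicate 2 left out (adjusted p = 0.102), at log2 fold changes of 0.83 and 0.70. Col5a1 (ENSMUSG00000026837; mm10, chromosome 2, 27886425 to 28039514) had 65.7, 90.9 and 62.3 CPM in the libraries labelled KO, against 62.1, 48 and 54.2 CPM in the expressing libraries. Its lowest library labelled KO lay just above its highest expressing library, and the call was close to the threshold (log2 fold change 0.42, SE 0.145, adjusted p = 0.045, edgeR). Col5a1 was not called without KO replicate 2 (0.23, adjusted p = 0.161), KO replicate 1 (adjusted p = 0.0575), or expressing replicate 1, 2 or 3 (adjusted p = 0.157, 0.162 and 0.109, all edgeR). Col5a3 (ENSMUSG00000004098; mm10, chromosome 9, 20770050 to 20815067), the least abundant type V chain per kilobase, had 3.04, 3.37 and 2.79 CPM in the libraries labelled KO, against 2.05, 1.45 and 1.59 CPM in the expressing libraries. All its libraries labelled KO lay above all expressing libraries (log2 fold change 0.87, SE 0.168, adjusted p = 0.00302, edgeR), and KO replicate 2 was only 1.16 times the mean of the other libraries labelled KO.

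Col2a1 and Col11a1 are the chains of cartilage fibrils, in which they occur together with Col11a2. Col11a1 (ENSMUSG00000027966; mm10, chromosome 3, 114030540 to 114220718) had 14.3, 17.6 and 13.7 CPM in the libraries labelled KO, against 8.4, 7.05 and 7.23 CPM in the expressing libraries. Col2a1 (ENSMUSG00000022483; mm10, chromosome 15, 97975602 to 98004695) had 27.9, 26.9 and 25.1 CPM in the libraries labelled KO, against 16.3, 11 and 13.7 CPM in the expressing libraries. For both genes the groups were well separated. Col11a1 was higher in the libraries labelled KO (log2 fold change 1.01, SE 0.122, adjusted p = 0.000206, edgeR), and so was Col2a1 (log2 fold change 0.96, SE 0.129, adjusted p = 0.000392, edgeR). Unlike the chains of type I, Col2a1 was not highest in KO replicate 2, which stood at 1.02 times the mean of the other libraries labelled KO. Col11a2 had 1.92, 1.82 and 1.3 CPM in the libraries labelled KO, against 1.83, 1.43 and 1.37 CPM in the expressing libraries, overlapped between them and was not called (0.12, SE 0.206). The minor fibrillar chain Col27a1 had 3.12, 2.75 and 2.42 CPM in the libraries labelled KO, against 4.07, 2.25 and 3.23 CPM in the expressing libraries, and was not called (-0.19, SE 0.211). Col24a1, another minor fibrillar chain, was too low to test, with 8, 6 and 10 reads in the libraries labelled KO, against 13, 7 and 8 reads in the expressing libraries.

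Markers of cartilage and bone other than collagens were mostly not called. Of 14 listed, 11 were tested, 1 was called higher (9.09%, against 19.2% of all tested genes) and 3 lower (27.3%, against 20.8%). The other 7 were not called, and the median log2 fold change over the 11 was -0.13. The summed level of the listed markers was 241.8 to 264.2 CPM in the libraries labelled KO and 442.3 to 495.4 CPM in the expressing libraries. Spp1, which encodes the secreted phosphoprotein osteopontin and makes up most of that sum, had 159.9, 177 and 161 CPM in the libraries labelled KO, against 315, 388 and 390.5 CPM in the expressing libraries (log2 fold change -1.13, SE 0.0892, adjusted p = 2e-05, edgeR). Alpl, the tissue-nonspecific alkaline phosphatase (-0.46, SE 0.1), and Sp7, the osteoblast factor osterix (-1.48, SE 0.321), were lower as well. Matn3, a cartilage matrix protein, was higher (log2 fold change 0.56, SE 0.15, adjusted p = 0.0145, edgeR), a call that was lost without KO replicate 1 (adjusted p = 0.0512, edgeR) or KO replicate 3 (adjusted p = 0.0543). The bone markers Ibsp, Bglap and Dmp1 had no read in at least 1 library. Whether cartilage or bone cells contributed to the collagen values was not tested.

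Of the type IV chains outside the common pair, Col4a5 and Col4a6 were both higher in the libraries labelled KO. These X-linked chains form the alternative basement membrane network of smooth muscle and some epithelia. Col4a5 (ENSMUSG00000031274; mm10, chromosome X, 141475385 to 141689234) had 11.2, 13.7 and 11.1 CPM in the libraries labelled KO, against 7.11, 6.85 and 6.24 CPM in the expressing libraries. Col4a6 (ENSMUSG00000031273; mm10, chromosome X, 141165403 to 141474076) had 2.35, 2.73 and 2.44 CPM in the libraries labelled KO, against 1.22, 1.27 and 1.34 CPM in the expressing libraries. In each gene every library labelled KO exceeded every expressing library (log2 fold change 0.83, SE 0.115, adjusted p = 0.000461, edgeR for Col4a5, and log2 fold change 0.97, SE 0.15, adjusted p = 0.000882, edgeR for Col4a6). The 2 genes lie on opposite strands with their annotated starts 1308 bases apart, so that they are read away from each other. Col4a3 and Col4a4, the chains that join Col4a5 in the filter of the kidney, are arranged likewise on chromosome 1 with starts 71 bases apart. Both had means below 1 CPM in both groups. Col4a4 had 0.459, 0.621 and 0.543 CPM in the libraries labelled KO, against 0.513, 0.408 and 0.356 CPM in the expressing libraries, with overlapping groups and no call (0.37, SE 0.274). Col4a3 was not tested, with 4, 1 and 3 reads in the libraries labelled KO, against 9, 4 and 7 reads in the expressing libraries. The excluded chains Col4a1 and Col4a2 averaged 159.5 ± 11 and 100.2 ± 6.86 CPM in the libraries labelled KO, against 60.7 ± 10.8 and 31.92 ± 6.08 CPM in the expressing libraries (SD, n = 3). Their log2 fold changes of 1.4 (SE 0.117) and 1.65 (SE 0.125) were larger than those of Col4a5 and Col4a6, a difference between genes that was not tested.

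The promoter windows of Col4a5 and Col4a6 are printed because both neighbours were higher. Windows run from 250 bases before to 50 bases after the RefSeq start (GRCm38.p6), 5′ to 3′ on the strand of the gene, and capitals mark the CCAAT box, the GC box (GGGCGG) or the TATA box (TATAAA) on either strand. Col4a5 is at chrX:141475169-141475468, plus strand, and Col4a6 at chrX:141474027-141474326, minus strand.
Col4a5: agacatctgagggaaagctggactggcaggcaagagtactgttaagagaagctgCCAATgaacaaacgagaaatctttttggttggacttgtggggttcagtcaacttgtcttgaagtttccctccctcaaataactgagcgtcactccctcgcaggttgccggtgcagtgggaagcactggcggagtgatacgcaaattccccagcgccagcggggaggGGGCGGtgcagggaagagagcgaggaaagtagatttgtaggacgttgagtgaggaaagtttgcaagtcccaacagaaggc
Col4a6: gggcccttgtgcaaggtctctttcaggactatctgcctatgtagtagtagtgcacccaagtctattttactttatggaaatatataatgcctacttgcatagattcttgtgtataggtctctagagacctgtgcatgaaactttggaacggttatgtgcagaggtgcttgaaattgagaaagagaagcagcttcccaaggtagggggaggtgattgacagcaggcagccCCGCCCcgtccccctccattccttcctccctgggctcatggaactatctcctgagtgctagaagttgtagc
The Col4a5 window holds 1 CCAAT and 1 GC box, and the Col4a6 window holds 1 GC box. Windows were found for 33 of the 42 chains, 36 windows in all, none of them for Col1a1, Col2a1, Col5a2, Col12a1 or Col22a1. A GC box was present in 21 of the 36 (58.3%), against 35.7% of all 32851 windows, a CCAAT box in 11 (30.6%), against 37.4%, and a TATA box in 5 (13.9%), against 13.6%. In the windows printed here no match overlapped another. A match is a string of letters, not a site shown to be bound.

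Genes of the extraembryonic endoderm, a lineage that lays down much basement membrane, moved in the same direction as Col4a5 and Col4a6. Of 20 listed markers other than collagens, 18 were tested, 15 were higher (83.3%, against 19.2% of all tested genes) and 1 was lower (5.56%, against 20.8%) in the libraries labelled KO, with a median log2 fold change of 1.79. Their summed level was 2475 to 2520 CPM in the libraries labelled KO and 1535 to 1761 CPM in the expressing libraries. The smallest p-values belonged to Cubn, the endocytic receptor cubilin (3.41, SE 0.0755), Pdgfra, a growth factor receptor of primitive endoderm (2.86, SE 0.108), Lama1, the laminin alpha chain of early basement membranes (2.15, SE 0.0895), and Gata6, a transcription factor of that lineage (2.67, SE 0.124). Apoe, the apolipoprotein, was lower (-0.91, SE 0.0996). Ttr and Afp, markers of visceral endoderm, had no read in at least 1 library. The part of endoderm-like cells in the collagen values was not tested.

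Type VI collagen forms beaded filaments around cells. Its classical molecule joins the chains Col6a1, Col6a2 and Col6a3, while Col6a4, Col6a5 and Col6a6 can take the place of Col6a3. The chains Col6a4 and Col6a5 were the only called ones of the 6 with all libraries used. Both were higher in the libraries labelled KO (33.3%, against 19.2% of all tested genes). Col6a5 (ENSMUSG00000091345; mm10, chromosome 9, 105856078 to 105960643) had 31.6, 35.6 and 33.3 CPM in the libraries labelled KO, against 15.1, 14.7 and 14.3 CPM in the expressing libraries. Its replicates were close together in both groups, and it had the smallest p-value of all chains (log2 fold change 1.19, SE 0.0767, adjusted p = 6.56e-06, edgeR). Col6a4 (ENSMUSG00000032572; mm10, chromosome 9, 105989454 to 106096783) had 6.36, 6.23 and 6.12 CPM in the libraries labelled KO, against 5.61, 4.63 and 4.71 CPM in the expressing libraries. That change was small (log2 fold change 0.33, SE 0.113, adjusted p = 0.0424, edgeR), and it was lost without any 1 library other than expressing replicate 1, with adjusted p from 0.098 to 0.134 (edgeR). Col6a6, the next gene on the same chromosome, had 0.975, 0.665 and 0.601 CPM in the libraries labelled KO, against 0.737, 1.07 and 0.629 CPM in the expressing libraries, overlapped between groups and was not called (-0.16, SE 0.287). Col6a5 and Col6a4 lie on the same strand of chromosome 9 with 28810 bases between them, and Col6a5 and Col6a6 with 27917. The Col6a5 window, printed as that of the chain with the smallest p-value, lies at chr9:105960594-105960893, minus strand, and its capitals mark a GC box.
Col6a5: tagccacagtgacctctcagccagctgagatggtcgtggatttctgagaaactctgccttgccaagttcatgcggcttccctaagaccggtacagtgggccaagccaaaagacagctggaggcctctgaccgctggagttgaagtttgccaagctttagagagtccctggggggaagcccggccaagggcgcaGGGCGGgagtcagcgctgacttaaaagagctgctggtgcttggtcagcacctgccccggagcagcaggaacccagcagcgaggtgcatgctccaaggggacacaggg

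The 3 classical type VI chains had another pattern. Col6a1 had 2.78, 3.99 and 2.07 CPM in the libraries labelled KO, against 3.65, 3.42 and 3.67 CPM in the expressing libraries. Col6a2 had 2.41, 4.04 and 2.25 CPM in the libraries labelled KO, against 3.56, 2.63 and 2.98 CPM in the expressing libraries. Col6a3 had 1.66, 3.93 and 2 CPM in the libraries labelled KO, against 2.95, 3.15 and 3.69 CPM in the expressing libraries. In each of them KO replicate 2 was above all other libraries, while the other libraries labelled KO were below all expressing libraries. With all libraries the log2 fold changes were -0.28 (SE 0.215), -0.06 (SE 0.231) and -0.36 (SE 0.282) for Col6a1, Col6a2 and Col6a3, and none was called. Without KO replicate 2 Col6a1 (-0.57, adjusted p = 0.0374, edgeR) and Col6a3 (-0.82, adjusted p = 0.0106) were lower, and Col6a2 was not called (-0.39, adjusted p = 0.138). Col6a2 changed sign with library-total scaling (0.03) and without expressing replicate 1 (0.08).

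Of 8 fibril-associated chains tested, 2 were higher (25%, against 19.2% of all tested genes) and 1 was lower (12.5%, against 20.8%). In a class of 8 chains these shares lie close to those over all tested genes. Col12a1 (ENSMUSG00000032332; mm10, chromosome 9, 79598991 to 79718831), which coats type I fibrils and links them to their surroundings, had 40.6, 70.4 and 46.9 CPM in the libraries labelled KO, against 17.8, 18.8 and 17.2 CPM in the expressing libraries. It had the largest log2 fold change of the 39 chains (log2 fold change 1.55, SE 0.179, adjusted p = 0.00016, edgeR), a 2.94-fold difference. KO replicate 2 was 1.61 times the mean of the other libraries labelled KO, yet those also lay far above every expressing library, and without it the log2 fold change was 1.29 (adjusted p = 0.000118, edgeR). Col22a1 (ENSMUSG00000079022; mm10, chromosome 15, 71795795 to 72034227), a chain of the junctions between muscle and tendon, had 3.12, 4.06 and 3.64 CPM in the libraries labelled KO, against 1.92, 2.04 and 1.61 CPM in the expressing libraries (log2 fold change 0.96, SE 0.157, adjusted p = 0.00121, edgeR). Col9a2 (ENSMUSG00000028626; mm10, chromosome 4, 121039385 to 121055322), a chain of the type IX collagen that sits on cartilage fibrils, had 2.44, 2.22 and 2.19 CPM in the libraries labelled KO, against 6.63, 5.47 and 5.58 CPM in the expressing libraries. All libraries labelled KO were below all expressing libraries, and by more than 2-fold in the fit (log2 fold change -1.37, SE 0.129, adjusted p = 5.34e-05, edgeR). Its partners in the same molecule were not called. Col9a1 had only 0.258, 0.111 and 0.136 CPM in the libraries labelled KO, against 0.321, 0.476 and 0.274 CPM in the expressing libraries, with 9, 5 and 7 reads in the libraries labelled KO, against 10, 21 and 10 reads in the expressing libraries, and its libraries labelled KO were all the lower ones (log2 fold change -1.16, SE 0.424, adjusted p = 0.0541, edgeR). It passed without expressing replicate 1 (adjusted p = 0.0455, edgeR) or KO replicate 1 (adjusted p = 0.039), and with a GC trend removed (adjusted p = 0.0396). Col9a3 had 2.72, 2.79 and 2.83 CPM in the libraries labelled KO, against 3.75, 2.52 and 3.48 CPM in the expressing libraries, with overlap and no call (-0.21, SE 0.163), and it shares 234 exonic bases with Tcfl5 on the opposite strand. The Col9a2 window, shown for the chain of this class that was lower, is at chr4:121039316-121039615, plus strand, and its capitals are 3 GC boxes. The RefSeq start used for it lies inside the GENCODE span of the gene, as do all 3 boxes.
Col9a2: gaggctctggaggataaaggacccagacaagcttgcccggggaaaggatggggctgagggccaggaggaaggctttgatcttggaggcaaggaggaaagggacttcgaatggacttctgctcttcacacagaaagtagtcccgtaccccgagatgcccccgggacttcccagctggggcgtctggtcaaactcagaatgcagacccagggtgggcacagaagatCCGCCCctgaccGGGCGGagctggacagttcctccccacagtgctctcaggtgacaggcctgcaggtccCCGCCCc

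None of the other fibril-associated chains was called with all libraries used. Col14a1, which like Col12a1 binds type I fibrils, had 0.889, 0.887 and 0.659 CPM in the libraries labelled KO, against 0.865, 1.5 and 1.12 CPM in the expressing libraries. The groups overlapped, and the fold change of -0.55 (SE 0.252) was not called, except without expressing replicate 1 (-0.69, adjusted p = 0.0273, edgeR). Col20a1 had 0.831, 1.02 and 0.93 CPM in the libraries labelled KO, against 0.609, 0.658 and 0.602 CPM in the expressing libraries. Its groups did not overlap, but it missed the threshold (log2 fold change 0.57, SE 0.212, adjusted p = 0.056, edgeR), which it passed with library totals (0.67, adjusted p = 0.0345) and with a GC trend removed (0.64, adjusted p = 0.0397). Col16a1 had 3.27, 4.92 and 2.83 CPM in the libraries labelled KO, against 3.27, 2.29 and 3.86 CPM in the expressing libraries, with KO replicate 2 highest and no call (0.24, SE 0.244). Without that library its log2 fold change was -0.04. Col19a1 was not tested, with 8, 17 and 4 reads in the libraries labelled KO, against 5, 6 and 1 reads in the expressing libraries.

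Col7a1, the single chain of the anchoring fibrils that fasten the epidermis to the dermis, was higher in the libraries labelled KO. Col7a1 (ENSMUSG00000025650; mm10, chromosome 9, 108953586 to 108984875) had 50.3, 51.8 and 40.1 CPM in the libraries labelled KO, against 34.8, 25.4 and 25 CPM in the expressing libraries. The groups did not overlap (log2 fold change 0.74, SE 0.141, adjusted p = 0.00278, edgeR), and expressing replicate 1 was the highest of the expressing libraries. Of the short-chain collagens, which form the hexagonal sheets under corneal endothelium (Col8a1, Col8a2) or mark hypertrophic cartilage (Col10a1), none was called. Col8a1 came nearest, with 6.33, 14.7 and 7.64 CPM in the libraries labelled KO, against 5.06, 5.08 and 6.6 CPM in the expressing libraries (log2 fold change 0.78, SE 0.282, adjusted p = 0.0519, edgeR). KO replicate 2 was 2.1 times the mean of the other libraries labelled KO, and without it the log2 fold change was 0.33 (adjusted p = 0.158, edgeR), while it passed without KO replicate 1 (1.00, adjusted p = 0.023), in DESeq2 (adjusted p = 0.0095) and with library totals (adjusted p = 0.0328, edgeR). Col8a2 (0.10, SE 0.167, 95% interval -0.27 to 0.48) and Col10a1 (0.29, SE 0.377, -0.55 to 1.14) had overlapping groups.

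The multiplexins Col15a1 and Col18a1, whose interrupted helices lie in the zone of basement membranes, were not called. Col18a1 (ENSMUSG00000001435; mm10, chromosome 10, 77052178 to 77166548) had 455, 489 and 452 CPM in the libraries labelled KO, against 476, 345 and 429.6 CPM in the expressing libraries. Expressing replicate 2 was the lowest library, the groups overlapped, and the 95% interval of the log2 fold change ran from -0.07 to 0.39 (log2 fold change 0.16, SE 0.103, adjusted p = 0.246, edgeR). With a GC trend removed, an alternative chosen after the data were seen, Col18a1 was called higher (0.26, adjusted p = 0.0002, edgeR). Col15a1 had 0.946, 1.06 and 0.484 CPM in the libraries labelled KO, against 1.35, 0.998 and 1.15 CPM in the expressing libraries (-0.50, SE 0.294, not called).

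Transmembrane collagens gave the other falls. Col17a1 (ENSMUSG00000025064; mm10, chromosome 19, 47646344 to 47692094), the hemidesmosome protein of basal epithelial cells, had 0.516, 0.377 and 0.504 CPM in the libraries labelled KO, against 1.44, 1.11 and 1.4 CPM in the expressing libraries. These are 18, 17 and 26 reads in the libraries labelled KO, against 45, 49 and 51 reads in the expressing libraries. Every library labelled KO was below every expressing library, and the log2 fold change was the most negative of the 39 chains (log2 fold change -1.49, SE 0.231, adjusted p = 0.000914, edgeR). Col25a1 (ENSMUSG00000058897; mm10, chromosome 3, 130131501 to 130599877), a chain of neurons, had 1.35, 1.42 and 1.38 CPM in the libraries labelled KO, against 1.83, 2.18 and 2 CPM in the expressing libraries. Its groups did not overlap either (log2 fold change -0.54, SE 0.154, adjusted p = 0.0202, edgeR), but the call was lost without any 1 library other than expressing replicate 1, with adjusted p from 0.0501 to 0.0731 (edgeR). Col13a1, found at neuromuscular junctions, had 1, 0.865 and 0.891 CPM in the libraries labelled KO, against 0.737, 0.612 and 0.52 CPM in the expressing libraries. It missed the threshold (log2 fold change 0.56, SE 0.226, adjusted p = 0.0739, edgeR) and passed without expressing replicate 1 (adjusted p = 0.0458), with library totals (adjusted p = 0.0495) and with a GC trend removed (adjusted p = 0.0388). Col23a1 had 0.258, 0.643 and 0.64 CPM in the libraries labelled KO, against 0.609, 0.476 and 0.329 CPM in the expressing libraries, and its sign turned without KO replicate 3 or expressing replicate 3. The remaining chains Col26a1 (-0.42, SE 0.339) and Col28a1 (0.56, SE 0.323) were below 1 CPM and not called. The Col17a1 window, shown for the most negative chain, is at chr19:47691993-47692292, minus strand, and its capitals are 2 TATA boxes and 1 CCAAT box on the reverse strand.
Col17a1: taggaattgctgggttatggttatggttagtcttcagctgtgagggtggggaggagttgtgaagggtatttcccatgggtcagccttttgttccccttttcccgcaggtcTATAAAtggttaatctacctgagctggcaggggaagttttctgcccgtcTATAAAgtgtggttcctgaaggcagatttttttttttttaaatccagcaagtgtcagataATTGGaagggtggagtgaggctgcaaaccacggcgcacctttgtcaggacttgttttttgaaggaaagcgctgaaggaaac

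The scatter of KO replicate 2 was shared by many chains. It was the highest library labelled KO for 26 of the 39 chains (66.7%), against 31.8% of all tested genes. Its level over the mean of KO replicates 1 and 3 had a median of 1.16 over the chains and 0.995 over all tested genes, of which the 5th and 95th percentiles were 0.741 and 1.4. A ratio above 1.5 was seen in 10 chains (25.6%) and in 3.66% of all tested genes. These chains were Col1a2 (2.15), Col6a3 (2.15), Col8a1 (2.1), Col1a1 (1.88), Col6a2 (1.73), Col5a2 (1.69), Col6a1 (1.64), Col16a1 (1.62), Col12a1 (1.61) and Col3a1 (1.51). Of the 10, only Col12a1 and Col5a2 were called, both higher. Without KO replicate 2 the same 2 remained higher, and Col1a2, Col6a1 and Col6a3 were lower. Among the chains with a ratio near 1 were Col6a5 (1.1), Col2a1 (1.02) and Col9a2 (0.959).

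Fibroblast markers other than collagens were also high in that library. Of 20 listed, 17 were tested, and their ratio of KO replicate 2 to the mean of KO replicates 1 and 3 had a median of 1.53, with 9 above 1.5. Their summed level was 116.1, 172.5 and 119.6 CPM in the libraries labelled KO, against 131.4, 127.9 and 131.7 CPM in the expressing libraries. Between the groups, 6 of the 17 were called higher (35.3%, against 19.2% of all tested genes) and 2 lower (11.8%, against 20.8%), with a median log2 fold change of 0.14. Dcn, the collagen-binding proteoglycan decorin, was higher at 2.81, 2.77 and 2.19 CPM in the libraries labelled KO, against 0.417, 0.544 and 0.821 CPM in the expressing libraries (log2 fold change 2.10, SE 0.238, adjusted p = 0.000146, edgeR). Twist1, a transcription factor of mesenchyme (0.54, SE 0.122), and Postn, the matricellular protein periostin (1.65, SE 0.381), were higher too, as was Ogn, which rests on at most 30 reads a library. Thy1, the surface antigen of fibroblasts (-0.89, SE 0.169), and Mgp, the matrix Gla protein (-1.32, SE 0.288), were lower. Mgp was not called with expressing replicate 1 left out (adjusted p = 0.102, edgeR) or expressing replicate 2 left out (adjusted p = 0.0556). Ogn was not called with KO replicate 2 left out (adjusted p = 0.11), KO replicate 3 left out (0.0776) or expressing replicate 2 left out (0.0606). Dpt, Ogn and Fap had no read in at least 1 library. In the same libraries the ratio had a median of 0.98 over endoderm markers and 0.993 over pluripotency markers. Whether fibroblast feeder cells contributed to the collagen values was not tested.

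The promoter window of Col1a2, shown for a chain with one of the highest ratios in KO replicate 2, is at chr6:4505368-4505667, plus strand, and its capitals mark 2 GC boxes and 2 CCAAT boxes, of which 1 lies on each strand. The RefSeq start used for this window lies inside the GENCODE span of the gene. The same holds for the printed windows of Col4a5, Col9a2 and Col17a1.
Col1a2: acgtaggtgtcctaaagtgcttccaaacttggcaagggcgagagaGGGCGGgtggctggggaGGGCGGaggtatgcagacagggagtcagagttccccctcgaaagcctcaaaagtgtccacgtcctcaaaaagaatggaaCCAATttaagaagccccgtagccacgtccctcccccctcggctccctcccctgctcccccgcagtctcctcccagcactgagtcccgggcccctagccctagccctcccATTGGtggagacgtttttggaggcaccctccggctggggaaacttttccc

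**Figure D4:**
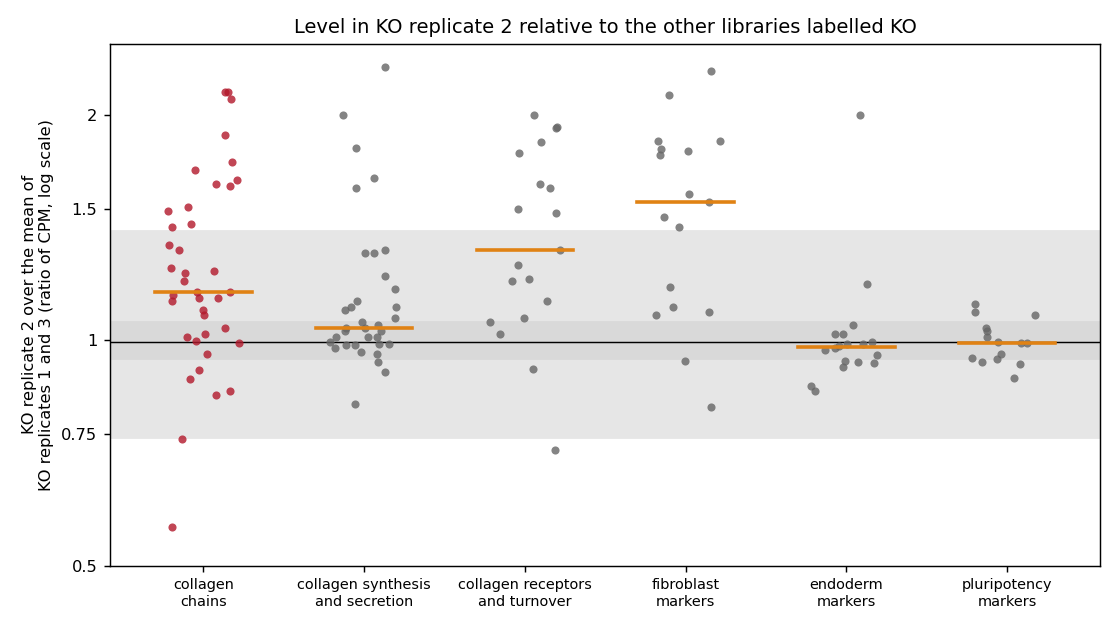
Level in KO replicate 2 divided by the mean of KO replicates 1 and 3 (log scale), with 1 point per tested gene of each list and a bar at the median; the grey bands give all tested genes, the outer from the 5th to the 95th percentile and the inner between the quartiles. The highest ratio is 2.32 among collagen synthesis genes (median 1.04), 2.29 among fibroblast markers (1.53) and 2.15 among collagen chains (1.16). Receptor and turnover genes (1.32) and endoderm markers (0.98) reach 2, whereas pluripotency markers stay close to 1 (0.993).

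Genes that modify, fold and process collagen chains were called in both directions. Of 37 listed, 35 were tested, 13 were higher (37.1%, against 19.2% of all tested genes) and 3 lower (8.57%, against 20.8%), with a median log2 fold change of 0.31. Prolyl 4-hydroxylase stabilises the triple helix. Its catalytic subunit gene P4ha2 had 25, 24.2 and 25.1 CPM in the libraries labelled KO, against 12.2, 11.4 and 11 CPM in the expressing libraries (log2 fold change 1.1, SE 0.0777, adjusted p = 1.07e-05, edgeR). P4ha1, the other main catalytic subunit, had 73.5, 77.1 and 74 CPM in the libraries labelled KO, against 48.1, 45.1 and 44.6 CPM in the expressing libraries (log2 fold change 0.70, SE 0.0618, adjusted p = 3.67e-05, edgeR). In both the groups were well separated. P4hb, the shared beta subunit, which is also a general disulfide isomerase, was slightly lower (log2 fold change -0.22, SE 0.0546, adjusted p = 0.0108, edgeR), a call lost without KO replicate 1 (adjusted p = 0.0601, edgeR) or KO replicate 3 (adjusted p = 0.0526), and with library totals (-0.13, adjusted p = 0.123). Serpinh1, the collagen chaperone HSP47, had 115, 127 and 114 CPM in the libraries labelled KO, against 65.3, 56.6 and 63.1 CPM in the expressing libraries. That was a clear separation (log2 fold change 0.94, SE 0.0751, adjusted p = 2.07e-05, edgeR), with KO replicate 2 only slightly above the other libraries labelled KO.

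Loxl2, an enzyme that cross-links collagen outside the cell, had 51.5, 68.5 and 52.4 CPM in the libraries labelled KO, against 28.1, 31.7 and 28.8 CPM in the expressing libraries (log2 fold change 0.96, SE 0.114, adjusted p = 0.000192, edgeR). Adamts14, which removes the amino-terminal propeptide, had 2.55, 3.86 and 3.78 CPM in the libraries labelled KO, against 11.2, 7.51 and 7.94 CPM in the expressing libraries, and was lower (log2 fold change -1.36, SE 0.195, adjusted p = 0.000563, edgeR). Mia2, an export factor of the endoplasmic reticulum exit sites, was lower by a small amount (log2 fold change -0.32, SE 0.0636, adjusted p = 0.00374, edgeR). By step, the tested genes called higher were 3 of 10 in prolyl hydroxylation, 2 of 4 in lysyl hydroxylation and glycosylation, 3 of 9 in folding and export, 2 of 7 in propeptide cleavage and 3 of 5 in cross-linking. At these list sizes several of the shares lie within about 1 gene of the 19.2% called higher over all tested genes. The genes called lower were 1 each in prolyl hydroxylation, folding and export, and propeptide cleavage. The median ratio of KO replicate 2 to the other libraries labelled KO was 1.04 over the list, and 1.6 over the 5 cross-linking genes.

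Receptors for collagen and the enzymes that degrade it were called in 6 cases. Of 21 listed, 19 were tested, 5 were higher (26.3%, against 19.2% of all tested genes) and 1 was lower (5.26%, against 20.8%), with a median log2 fold change of 0.19. KO replicate 2 was the highest library labelled KO for 78.9% of the 19, against 31.8% of all tested genes. Its ratio to the mean of KO replicates 1 and 3 had a median of 1.32, against 0.995, and was above 1.5 for 8 of the 19 (42.1%), against 3.66%. The part of fibroblasts in these values was not tested. Itga1, the alpha subunit of an integrin that binds types I and IV, had 26.6, 24.1 and 26.1 CPM in the libraries labelled KO, against 11.9, 13.2 and 12.7 CPM in the expressing libraries (log2 fold change 1.02, SE 0.0806, adjusted p = 2.02e-05, edgeR). Itgb1, the beta subunit shared by all collagen-binding integrins, had 775, 896 and 812 CPM in the libraries labelled KO, against 476, 579 and 573 CPM in the expressing libraries (log2 fold change 0.61, SE 0.0859, adjusted p = 0.000525, edgeR). For both the groups did not overlap. The other alpha subunits Itga2 (0.25, SE 0.291), Itga10 (-0.33, SE 0.204) and Itga11 (0.19, SE 0.255) were not called, nor were the discoidin domain receptors, collagen-binding tyrosine kinases, Ddr1 (0.26, SE 0.104) and Ddr2 (-0.49, SE 0.194). Ddr1 was called without expressing replicate 1 (0.41, adjusted p = 3.39e-06, edgeR), and Ddr2 without KO replicate 2 (-0.75, adjusted p = 0.00813). Both were also called with no low-count filter, with the replicate number as a block, and with that pair of libraries left out together. Ddr1 passed with library totals and with a GC trend removed as well, and Ddr2 in DESeq2. Itga11 turned to -0.18 without KO replicate 2.

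Among proteases and their inhibitors, Mmp13, a collagenase, had 0.401, 0.798 and 0.426 CPM in the libraries labelled KO, against 0.16, 0.249 and 0.274 CPM in the expressing libraries, at the low end of detection (log2 fold change 1.23, SE 0.392, adjusted p = 0.0325, edgeR). Timp1, an inhibitor of such enzymes, had 30.9, 55 and 31.1 CPM in the libraries labelled KO, against 26.6, 23.3 and 23.2 CPM in the expressing libraries, with KO replicate 2 far above the rest (log2 fold change 0.68, SE 0.203, adjusted p = 0.025, edgeR). Mmp9, a gelatinase, was lower (log2 fold change -0.36, SE 0.113, adjusted p = 0.0291, edgeR). Each of the 3 missed the threshold when certain single libraries were left out. For Mmp13 these were KO replicate 2 (adjusted p = 0.135, edgeR), expressing replicate 2 (0.063) and expressing replicate 3 (0.0609). For Timp1 they were expressing replicates 1, 2 and 3 (adjusted p = 0.198, 0.148 and 0.0757, edgeR). For Mmp9 they were KO replicate 2 (0.0594), KO replicate 3 (0.124) and expressing replicate 3 (0.111). Mmp8 had no read in any library.

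**Figure D5:**
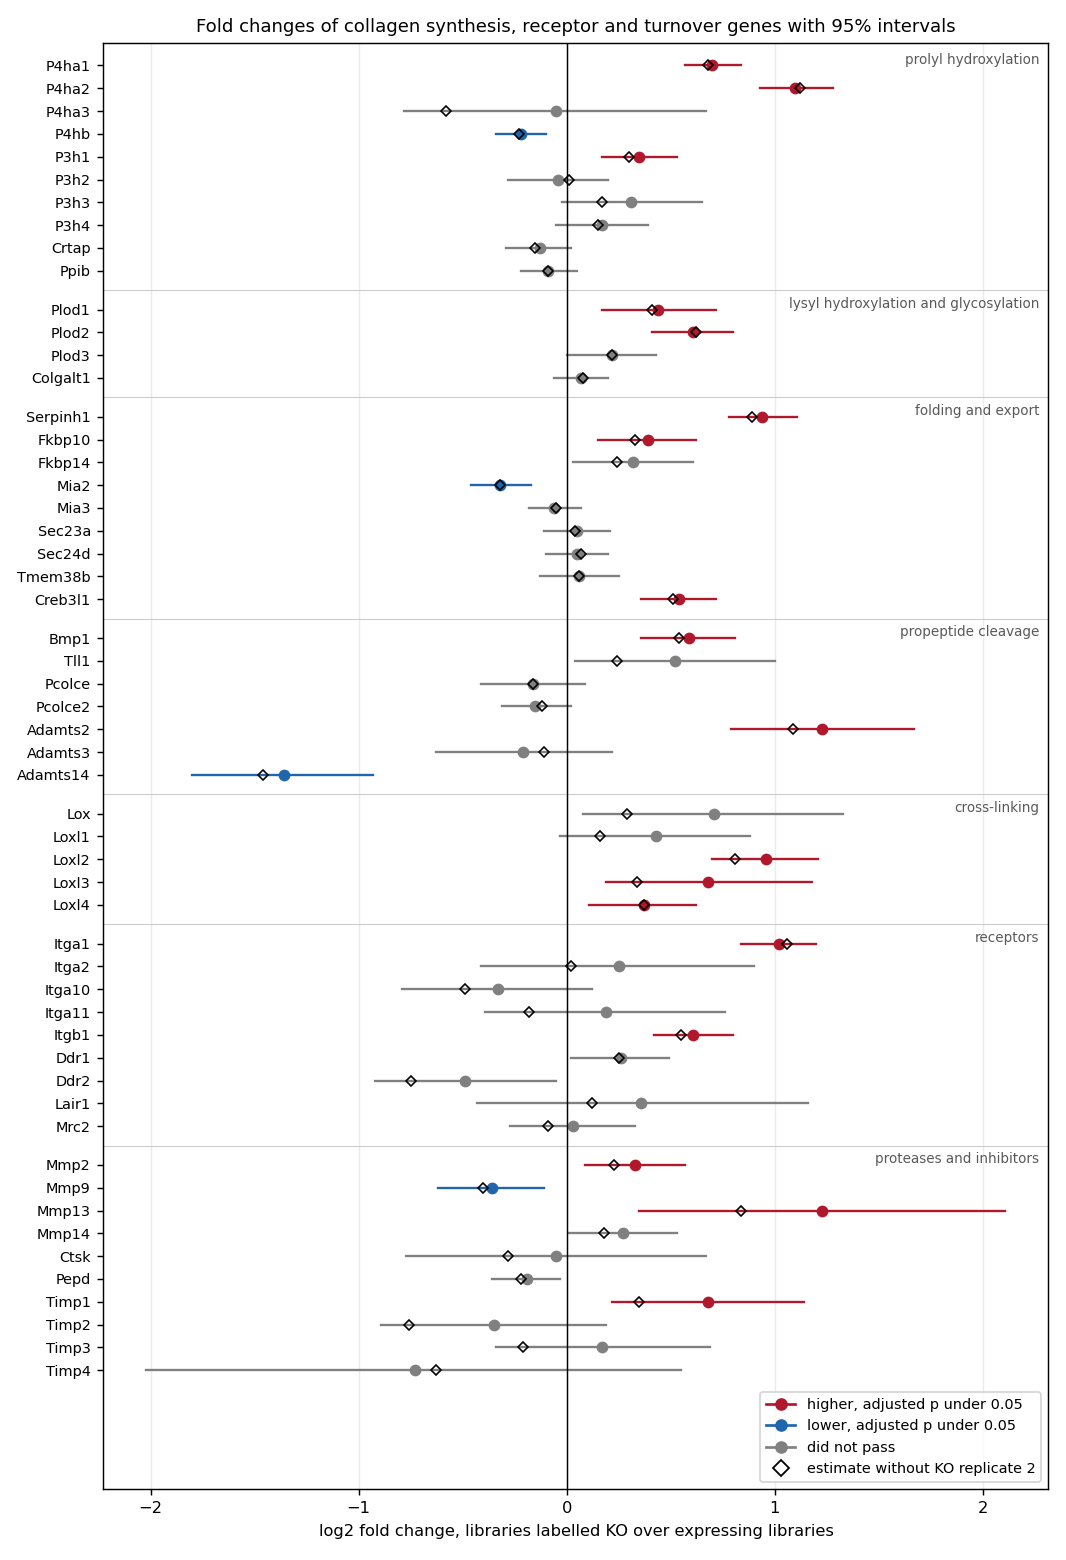
Log2 fold change, the libraries labelled KO over the expressing libraries, of the tested genes for collagen synthesis, receptors and turnover, with the 95% interval of the edgeR fit as a bar and the estimate without KO replicate 2 as a diamond. P4ha2 (1.1), Itga1 (1.02) and Serpinh1 (0.94) have narrow intervals above 0, and Adamts14 (-1.36) lies lowest.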

How the data were processed

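Polyadenylated RNA of 6 ES cell libraries was sequenced with a stranded kit. The authors deposited 1 table of raw read counts for 55401 gene identifiers. The submitters' processing notes name HTSeq 0.6.1p1, STAR 2.5.3a, cutadapt 1.10 and bcl2fastq 2.20.0.422, with build mm10. The counting settings are not given, so reads from opposite-strand neighbours may not be separated. Such a neighbour shares exon bases with 8 of the 42 chains, Col5a1, Col6a4 and Col22a1 among the called ones, which makes their values less certain.

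Groups came from the sample titles. Symbols and positions came from GENCODE M21, which named 55141 identifiers. In R 4.3.3, edgeR 4.0.16 was run on the counts (filterByExpr with a minimum count of 10 and total of 15, TMM scaling, robust quasi-likelihood fit with group alone). Benjamini-Hochberg adjustment covered all 17778 genes tested, with a threshold of 0.05, and the common biological coefficient of variation was 9.05%. The step was tested on simulated counts with the same biological coefficient of variation in every gene and no library set apart. That run does not cover the spread of expressing replicate 1 or KO replicate 2. Total counts ran from 31219328 to 50328010, and the floor of 3 counts covers counting error only. The libraries within a group differed beyond sampling noise, so none was a copy of another. Promoter windows came from RefSeq (GRCm38.p6).

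The chains, gene lists and tests were chosen with earlier results of these data known. Every chain is named, and full values are given for called chains. In other lists at most 4 called genes per direction were named by smallest p, with the collagen-binding integrins, Ddr1 and Ddr2. Alternatives were DESeq2 1.42.0, other scaling and filters, a replicate block and each library left out. Removal of a GC trend, and leaving out expressing replicate 1 with KO replicate 2, were chosen after seeing the data.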

Additional observations from a re-analysis of the deposited data

How the results depend on the processing

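Of the 15 collagen calls, 11 held under every alternative run (Col2a1, Col4a5, Col4a6, Col5a3, Col6a5, Col7a1, Col9a2, Col11a1, Col12a1, Col17a1 and Col22a1), and Col5a1, Col5a2, Col6a4 and Col25a1 were lost under at least 1. The count of chains higher was 12 with DESeq2 and with its size factors, 15 with library totals, 10 with no filter, 12 with at least 1 CPM in 3 libraries, 14 with a GC trend removed, and 9 to 11 with 1 library left out. The share of all genes called higher, 19.2% in edgeR with TMM and all libraries, was 16.7% with DESeq2, 20.2% with its size factors, 25.1% with library totals, 11.4% with no filter, 21.5% with the 1 CPM filter and 25.5% with a GC trend removed. Scaling by library totals gave a median log2 fold change over all genes of 0.08, against -0.01 by TMM, and called 4466 genes higher and 2570 lower, against 3422 and 3695. The count of chains lower ran from 2 to 5 with 1 library left out, and was 7 without expressing replicate 1 and KO replicate 2. Receptor and turnover genes higher were 3 with DESeq2 and 2 to 6 with 1 library left out; those lower were 0 with library totals, 2 with no filter, DESeq2, the replicate block or a GC trend removed, 4 without that pair of libraries, and 0 to 2 with 1 library left out. Fibroblast markers higher ran from 3 to 6 and lower from 1 to 3 with 1 library left out, with 1 lower once a GC trend was removed. Cartilage and bone markers higher were 2 with DESeq2 size factors, library totals, the 1 CPM filter or a GC trend removed, and 0 to 1 with 1 library left out. The sign turned without expressing replicate 1 and KO replicate 2 for Col10a1 (-0.05), Col1a1 (-0.12), Col1a2 (-0.25), Col27a1 (0.04), Itga2 (-0.14), Itga11 (-0.05) and Bgn (-0.44). It also turned for Col6a2 with library totals (0.03) or a GC trend removed (0.0031), and for Bgn under the replicate block (-0.07). With 1 library left out, the values ran over both signs for Col16a1 (-0.04 to 0.43), Col1a1 (-0.29 to 0.25), Col1a2 (-0.31 to 0.34), Col23a1 (-0.01 to 0.46), Col27a1 (-0.41 to 0.04), Col3a1 (-0.05 to 0.32), Col6a2 (-0.39 to 0.10), Col6a6 (-0.38 to 0.10), Itga11 (-0.18 to 0.38) and Bgn (-0.47 to 0.25). The cause was not tested. Same-numbered libraries did not deviate together (correlations of 0.024, -0.034 and 0.042), and not every library correlated best with its own number. The replicate block gave 10 chains higher and 3 lower, and lost Col5a1 (adjusted p = 0.072, edgeR) and Col6a4 (0.059). Counting error weighs most on the 12 chains below 1 CPM in both groups, which include the 3 untested ones.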

Other observations

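Other genes of the fibrillar matrix were compared in 3 lists chosen with the earlier results known but before their own values were seen. Of 15 matrix glycoproteins, 13 were tested, 4 were higher (30.8%, against 19.2% of all tested genes) and 1 was lower (7.69%, against 20.8%) in the libraries labelled KO (edgeR), with a median log2 fold change of -0.14. Fbn2, the microfibril protein of developing tissues, had 15.5, 17.9 and 17.4 CPM in the libraries labelled KO, against 9.68, 8.82 and 9.01 CPM in the expressing libraries (log2 fold change 0.89, SE 0.0923, adjusted p = 8.91e-05, edgeR). Thbs1, the matricellular thrombospondin, had 721, 1017 and 718 CPM in the libraries labelled KO, against 442, 432 and 436 CPM in the expressing libraries (log2 fold change 0.91, SE 0.121, adjusted p = 0.000387, edgeR), and its relative Thbs2 was higher too (0.50, SE 0.144). Tnc, the adhesion-modulating tenascin, had 85.2, 173 and 89.7 CPM in the libraries labelled KO, against 63.2, 60.3 and 64.3 CPM in the expressing libraries (log2 fold change 0.89, SE 0.236, adjusted p = 0.0158, edgeR), with KO replicate 2 at 1.97 times the mean of the other libraries labelled KO. Tnc was not called with expressing replicate 1 (adjusted p = 0.193, edgeR) or 2 (0.146) left out. Thbs2 was not called with KO replicate 2 (0.082), KO replicate 3 (0.0616) or expressing replicate 3 (0.0695) left out. Eln, the elastin gene, was lower at 0.487, 0.577 and 0.581 CPM in the libraries labelled KO, against 2.37, 1.34 and 1.5 CPM in the expressing libraries (log2 fold change -1.63, SE 0.265, adjusted p = 0.00119, edgeR). Fn1, which encodes fibronectin and was named after its values were seen, had 861, 1182 and 863 CPM in the libraries labelled KO, against 1230.0, 1060.0 and 1098 CPM in the expressing libraries and was not called (-0.22, SE 0.119), but was lower without KO replicate 2 (-0.39, adjusted p = 0.00896).

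Of 10 listed leucine-rich proteoglycans that bind collagen, only Podn and Bgn were tested. The list leaves out Dcn, Ogn and Lum, which were tested among the fibroblast markers. Dcn and Ogn were called higher, as given above, and Lum was not called (-0.81, SE 0.393). Podn had 3.33, 3.77 and 3.14 CPM in the libraries labelled KO, against 1.89, 1.16 and 1.78 CPM in the expressing libraries (log2 fold change 1.1, SE 0.191, adjusted p = 0.00166, edgeR). Bgn, the biglycan gene, had 48.4, 114 and 51.9 CPM in the libraries labelled KO, against 70.0, 72.1 and 66.4 CPM in the expressing libraries, with KO replicate 2 the highest of the 6 libraries and no call (0.04, SE 0.286). Of 20 other proteins with a collagen-like helix, 11 were tested, and 9 of these were not called. In the libraries labelled KO 1 was higher (9.09%, against 19.2% of all tested genes) and 1 lower (9.09%, against 20.8%). The median log2 fold change was 0.01. Colec12, a scavenger receptor with such a stalk, had 53.8, 53.3 and 55.3 CPM in the libraries labelled KO, against 34.5, 33.4 and 31.3 CPM in the expressing libraries (log2 fold change 0.71, SE 0.0663, adjusted p = 5.11e-05, edgeR). Scara5, a ferritin receptor of the same build, was lower (log2 fold change -0.67, SE 0.235, adjusted p = 0.0465, edgeR), a call lost in every alternative except the filter of at least 1 CPM, which it did not enter.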
